A study of Rattus norvegicus with 12 samples.

Results

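Small RNAs of the rat retina at postnatal day 17 (P17) were compared between pups with oxygen-induced retinopathy (OIR) and room-air controls (CTL). The comparison rests on 2 of the 12 libraries of the series, the retina libraries of that age. The other 10 cover the retina at P7 and P14 and the choroid at P7, P14 and P17. Both libraries came from Sprague Dawley rats and each from 1 pool of 5 retinas. In the OIR group the pups were kept in oxygen that alternated between 50% and 10% every 24 h until P14 and were then in room air for 3 days. CTL pups stayed in room air throughout. The condition label of the OIR library reads hyperoxic, although its pups were in room air when the tissue was taken. Sex is not given in the sources used here.

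With 1 pool on each side there was no biological replicate, so no test between OIR and CTL was possible and no spread between animals is known. Levels are unique molecular identifiers (UMIs, a tag on each captured molecule) per 1000000 miRNA UMIs, written RPM. Each ratio is OIR over CTL. Its 95% interval was computed by the exact method of Clopper and Pearson from both UMI counts and covers counting error only. An entry was counted as higher when its ratio was above 1.2, or lower when below 0.8, if the interval also left out 1. These words describe the 2 pools. A smaller number of cells of a type and less RNA per cell cannot be told apart in such bulk RNA.

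A miRNA is cut from a hairpin precursor, and either arm of the hairpin, 5p or 3p, can be loaded into the silencing complex. The bases 2 to 8 of the mature miRNA, the seed, pair with target mRNAs, so that miRNAs with the same seed share many predicted targets. In the retina the miR-183/96/182 cluster is a product of photoreceptors and other sensory cells, miR-9 and miR-124 are neuronal, miR-126 is endothelial and miR-143/145 belongs to smooth muscle cells and pericytes. In OIR the retinal vessels are first lost and then grow back in an abnormal pattern, and P17 lies in the phase of regrowth.

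The sequences below are those the comparison turned on, from RefSeq (GRCr8), with the seed in capitals. The cluster of sensory cells comes first, because its members are abundant and did not move alike.
miR-182: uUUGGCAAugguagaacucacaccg
miR-96-5p: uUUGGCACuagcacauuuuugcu
miR-183-5p: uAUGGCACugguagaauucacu

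The next set pairs members of a seed family that had unlike ratios. With positions counted from 1 at the 5′ end, let-7a-5p and let-7f-5p differ by G12A, let-7a-5p and let-7b-5p by A17G and A19G, and miR-204-5p and miR-211-5p by A17U. miR-190a-5p and miR-190b-5p have their first 15 bases in common.
let-7a-5p: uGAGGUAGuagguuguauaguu
let-7b-5p: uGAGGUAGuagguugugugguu
let-7f-5p: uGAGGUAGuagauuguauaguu
miR-190a-5p: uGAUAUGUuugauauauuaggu
miR-190b-5p: uGAUAUGUuugauauuagguu
miR-204-5p: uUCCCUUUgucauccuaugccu
miR-211-5p: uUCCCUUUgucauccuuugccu

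The last set holds vascular, blood cell and hypoxia miRNAs with high ratios, and the miRNA with the lowest ratio, miR-6328.
miR-126a-3p: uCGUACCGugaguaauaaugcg
miR-143-3p: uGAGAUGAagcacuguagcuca
miR-223-3p: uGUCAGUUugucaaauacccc
miR-210-3p: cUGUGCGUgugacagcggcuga
miR-6328: aGGCCUGCucugagcccccgc

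The OIR library held 16515533 reads and 10546251 miRNA UMIs, against 19399673 reads and 13370397 miRNA UMIs in the CTL library. Reads too short to assign were 14.2% of the OIR library and 9.22% of the CTL library, and reads with a defective UMI 6.40% and 3.44%. Both shares were also higher in OIR at P7 and P14. The part of these differences in the ratios below was not tested. Sums over marker lists matched the tissue label: the sensory cluster summed to 347903 RPM in OIR retina and 336038 RPM in CTL retina, against 22028 and 23924 RPM in the P17 OIR and CTL choroid. The P7 CTL retina stood apart, with 33661 RPM of mesenchymal and mural miRNAs, against 4593 RPM in the P17 CTL retina, so ratios at P7 are given only as values.

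Of 667 miRNA entries listed in either library, 597 were in both, and 537 had a mean of at least 20 UMIs and were compared. Among these 537, 70 were higher in OIR (13.0%) and 113 lower (21.0%), with a median log2 ratio of -0.073. Differences past 2-fold were few: 3 miRNAs had a ratio above 2 and 13 below 0.5. The split depended on the scaling, since scaling by TMM (trimmed mean of M-values) moved every log2 ratio by 0.11, and scaling to total reads by -0.11. Under TMM 113 were higher and 67 lower, and under total reads 52 were higher and 151 lower. The median absolute log2 ratio of miRNAs with at least 100 RPM was 0.23 for OIR over CTL at P17, 0.34 at P14 and 0.26 at P7. Between the CTL retinas of P17 and P14 it was 0.16, a figure for 2 pools of unlike age and without the oxygen treatment. Between the OIR retinas of P17 and P14, also pools of unlike age, it was 0.28.

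**Figure D1:**
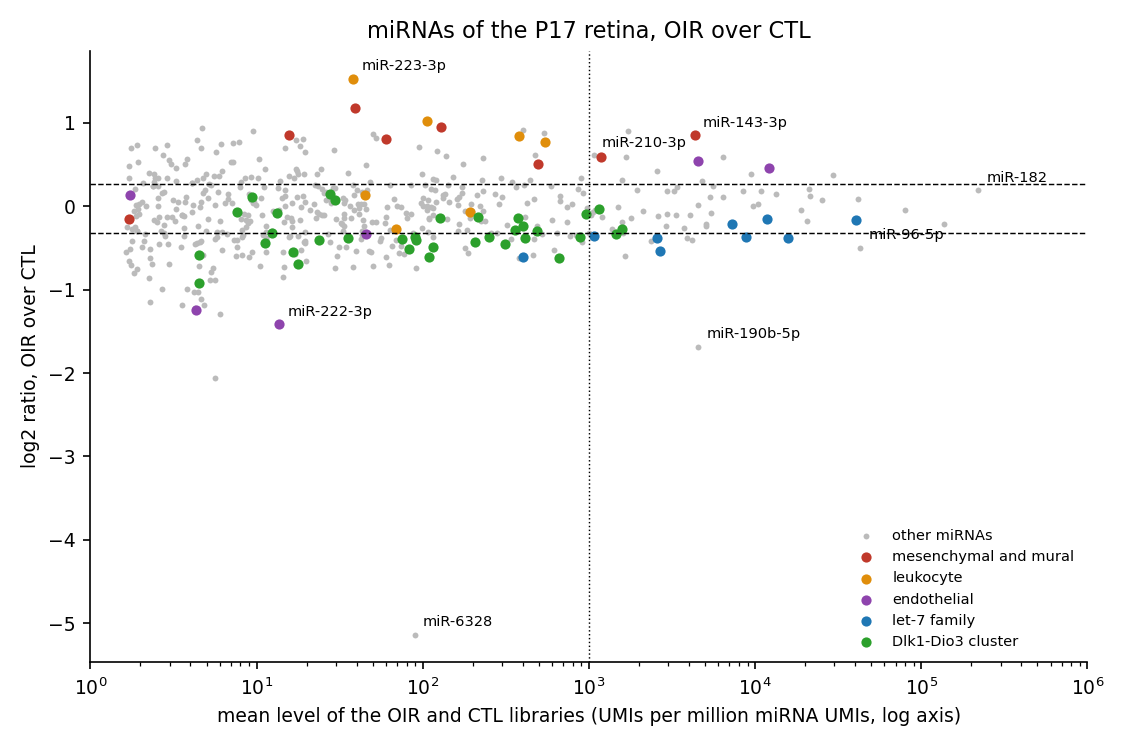
Log2 ratio of OIR over CTL against the mean level of the 2 P17 retina libraries (RPM, log axis), 1 point for each of 537 miRNAs. Dashed lines mark ratios of 1.2 and 0.8 and the dotted line 1000 RPM. Mesenchymal and leukocyte miRNAs lie mostly above the dashed band. The 9 let-7 miRNAs and most of the 35 in the Dlk1-Dio3 list lie under 0, of which 6 and 19 are counted as lower. miR-6328 and miR-190b-5p lie far below the band.

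Among the 71 miRNAs of at least 1000 RPM, 13 were higher (18.3%) and 13 lower (18.3%) in OIR. Under TMM the split was 22 higher and 4 lower, and under total reads 10 and 18. The most abundant miRNA, miR-182, was at 234300 RPM in OIR and 205163 RPM in CTL, a ratio of 1.14. Its cluster partner miR-183-5p had 77932 and 80659 RPM, a ratio of 0.966. The third member, miR-96-5p, was lower, at 35436 RPM in OIR and 49982 RPM in CTL (ratio 0.709, interval 0.706 to 0.712). The 3 hairpins lie in 1 genomic cluster, and their main products thus had 3 different ratios in these pools.

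Neuronal miR-9a-5p, which acts on neural progenitors, was the second most abundant miRNA, with 126461 RPM in OIR and 145887 RPM in CTL (ratio 0.867). miR-16-5p, a regulator of the cell cycle, had 42561 and 40150 RPM (ratio 1.06). miR-101a-3p, which targets the histone methyltransferase Ezh2, was higher, with 33307 RPM in OIR and 25732 RPM in CTL (ratio 1.29). The remaining members of the top 10 stayed inside the band: miR-26b-5p (1.06), let-7f-5p (0.895), miR-30e-5p (1.09) and miR-29c-3p (1.16). Under TMM miR-29c-3p (1.25) and miR-182 (1.23) were higher, and under total reads miR-101a-3p (1.199) was inside the band.

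The lowest ratio at this level was that of miR-190b-5p, with 22788 UMIs in OIR and 92742 in CTL. Its level was 2161 RPM in OIR, against 6936 RPM in CTL (ratio 0.312, interval 0.307 to 0.316). miR-190a-5p, which has the same seed, stood at 2071 and 2158 RPM, a ratio of 0.960 (0.943 to 0.977). The seed family as a whole had 4232 RPM in OIR and 9094 RPM in CTL (ratio 0.465). The ratio of miR-190b-5p was 1.17 at P7 and 0.365 at P14, and in the P17 choroid its level was 233 RPM in OIR and 477 RPM in CTL.

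miR-135a-5p followed, with 1314 RPM in OIR and 1991 RPM in CTL (ratio 0.660), and miR-135b-5p of the same seed had 0.670. Neuronal miR-181a-5p had 2025 and 2694 RPM (ratio 0.752) and miR-9b-3p 3561 and 4728 RPM (ratio 0.753). miR-211-5p, made from an intron of the channel gene Trpm1, had 3369 RPM in OIR and 4369 RPM in CTL (ratio 0.771), whereas miR-204-5p, its seed partner and an abundant miRNA of the pigment epithelium, had 9736 and 9724 RPM (ratio 1.00). Under TMM miR-181a-5p (0.811), miR-9b-3p (0.812) and miR-211-5p (0.832) were inside the band, with miR-204-5p at 1.08. Members of 1 seed family therefore differed in ratio in both the miR-190 and the miR-204 families.

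At the other end, miR-184, an abundant miRNA of corneal and lens epithelium, had 2247 RPM in OIR and 1203 RPM in CTL (ratio 1.87, interval 1.83 to 1.91). miR-143-3p of vascular smooth muscle and pericytes had 5557 and 3077 RPM (ratio 1.81, interval 1.78 to 1.83). miR-210-3p, a direct target of hypoxia-inducible factor, had 1288 RPM in OIR and 843 RPM in CTL (ratio 1.53, interval 1.49 to 1.57). All 3 had higher levels in OIR by more than 1.5-fold. The ratio of miR-210-3p was 1.12 at P7 and 2.05 at P14, while its other arm, miR-210-5p, had 42 and 56 UMIs at P17 and an interval that included 1.

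miR-335, encoded in an intron of the imprinted gene Mest, had 7659 RPM in OIR and 5077 RPM in CTL (ratio 1.51). miR-152-3p had 1411 and 938 RPM (ratio 1.5), and miR-130a-3p, expressed in endothelial and blood cells, 2019 and 1343 RPM (ratio 1.5). Both arms of the endothelial hairpin miR-126a were higher, miR-126a-5p with 5383 and 3692 RPM (ratio 1.46) and miR-126a-3p with 14003 and 10154 RPM (ratio 1.38). miR-30e-3p (1.34) and miR-191a-5p (1.31) complete the 10 highest ratios.

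**Figure D2:**
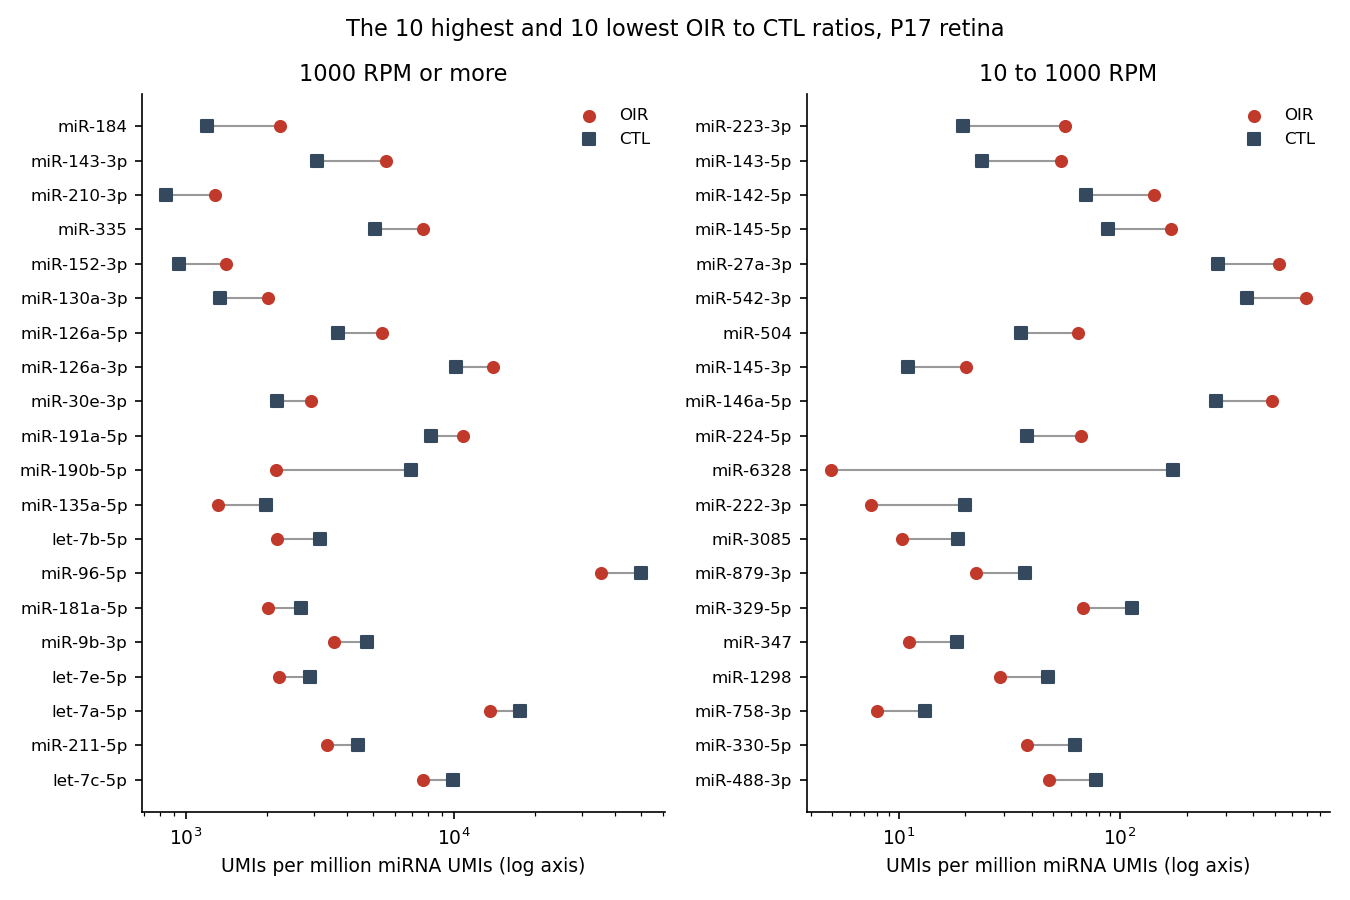
Levels in RPM (log axis) of the 10 highest and 10 lowest ratios at 1000 RPM or more (left) and from 10 to 1000 RPM (right). Circles are the OIR pool and squares the CTL pool of the P17 retina. The gap is widest for miR-6328, at 4.93 RPM in OIR and 173 RPM in CTL, and for miR-190b-5p.

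Below 1000 RPM, 115 miRNAs lay between 100 and 1000 RPM, of which 20 were higher and 24 lower. Between 10 and 100 RPM there were 174, of which 27 were higher and 51 lower. Under 10 RPM there were 177, of which 10 were higher and 25 lower, and the interval of 142 of them included 1. The precision thus fell with level: the upper bound of the interval was 1.03 times the lower in the median above 1000 RPM and 2.41 times under 10 RPM.

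The lowest ratio of all was that of miR-6328, an annotated rat miRNA whose mature sequence is 76.2% G and C. It had 52 UMIs in OIR and 2319 in CTL, which is 4.93 and 173 RPM (ratio 0.0284, interval 0.0212 to 0.0374). Its levels in OIR and CTL were 60.2 and 366 RPM in the P7 retina, 11.7 and 548 RPM in the P14 retina, and 6.72 and 496 RPM in the P17 choroid. It was thus lower in OIR in each of these 4 pairs. Over the 488 miRNAs with a sequence, the rank correlation of G and C content with the log2 ratio was -0.012, and over those of 1000 RPM or more 0.25, a description across miRNAs that share both libraries.

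miR-222-3p, which restrains Kit and p27 in endothelial and other dividing cells, had 79 UMIs in OIR and 267 in CTL (ratio 0.375, interval 0.288 to 0.484). miR-221-5p of the same cluster had 27 and 81 UMIs (ratio 0.423, interval 0.263 to 0.660) and miR-221-3p 423 and 676 UMIs (ratio 0.793, interval 0.701 to 0.897). These 3 were lower while both arms of miR-126a were higher, so the endothelial list did not move one way. miR-221-3p was inside the band with reads, with TMM and without the top 10 miRNAs in the denominator. The endothelial list summed to 19438 RPM in OIR and 13925 RPM in CTL (ratio 1.4). Nearly all of this was miR-126a, with 14003 and 10154 RPM of the 3p and 5383 and 3692 RPM of the 5p arm. The median log2 ratio of the list was -0.10. The other low ratios from 10 to 1000 RPM ran from 0.555 for miR-3085 to 0.613 for neuronal miR-488-3p, with miR-879-3p, miR-329-5p, miR-347, miR-1298, miR-758-3p and miR-330-5p between them.

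The highest ratio of all was that of miR-223-3p, the miRNA of neutrophils and monocytes, with 598 UMIs in OIR and 262 in CTL. This is 56.7 and 19.6 RPM (ratio 2.89, interval 2.50 to 3.36). miR-142-5p and miR-142-3p, made in all blood lineages, had 142 and 69.9 RPM (ratio 2.03) and 681 and 400.3 RPM (ratio 1.70). miR-146a-5p, induced by NF-kB in myeloid and other cells, had 485 RPM in OIR and 271 RPM in CTL (ratio 1.79). Thus 4 of the 7 leukocyte entries were higher and none lower, against 13.0% higher and 21.0% lower of all miRNAs, with a median log2 ratio of 0.77. Under total reads 1 was lower, and 4 were higher under each scaling. These 4 include both arms of the miR-142 hairpin, which are not independent entries. The lymphocyte miRNA miR-150-5p had 62.6 and 75.3 RPM (ratio 0.831), miR-155-5p 47.3 and 43.0 RPM (ratio 1.10) and miR-146b-5p 189 and 198 RPM (ratio 0.957).

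Of 8 measured mesenchymal and mural entries 7 were higher in OIR and none lower, under each scaling, against 13.0% of all miRNAs higher, with a median log2 ratio of 0.83. Both arms of the miR-143/145 hairpins were among them, with miR-143-5p at 54.2 and 23.9 RPM (ratio 2.27), miR-145-5p at 170 and 88.0 RPM (ratio 1.93) and miR-145-3p at 20.1 and 11.1 RPM (ratio 1.82). The fibroblast miRNAs miR-199a-3p (580 and 407 RPM, ratio 1.42) and miR-199a-5p (76.0 and 43.5 RPM, ratio 1.75) also were higher. Arms of 1 hairpin and hairpins of 1 cluster are counted as separate entries here, although they can share a transcript. miR-214-3p, with 17 UMIs in OIR and 24 in CTL, had an interval that included 1. The list summed to 7872 RPM in OIR and 4593 RPM in CTL, against 142866 and 162156 RPM in the P17 OIR and CTL choroid.

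Choroid and muscle next to the retina hold such miRNAs at high levels, so other lists of those tissues were set beside this one. The striated muscle list had 1 of 5 entries higher and 1 lower, with sums of 732 RPM in OIR and 643 RPM in CTL, against 15777 and 37212 RPM in the OIR and CTL choroid. The pigment epithelium list had 1 of 4 higher, miR-204-3p with 59 and 43 UMIs, and 1 lower, with sums of 13142 and 14124 RPM. The surface epithelium and lens list had 2 of 9 higher, miR-184 and miR-200c-3p (81 and 61 UMIs), with sums of 2635 and 1571 RPM. The erythroid list, with miR-451-5p and miR-486, had 1 of 4 higher, miR-144-3p, and sums of 55.8 and 49.5 RPM. The leukocyte list summed to 1665 RPM in OIR and 1077 RPM in CTL, against 12634 and 10935 RPM in the choroid. Under TMM the striated muscle list had 3 higher and none lower, the pigment epithelium list 2 and none, the surface epithelium list 4 and none, and the erythroid list 2 and none. Under total reads the striated muscle list had none higher and 1 lower and the surface epithelium list 2 and 2. Of all miRNAs 13.0% were higher and 21.0% lower. The part of tissue carried over at dissection in the mural and leukocyte ratios was not tested.

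The mural list had a median log2 ratio of -0.15 at P14 and -3.07 at P7, and the leukocyte list 0.26 and -1.60. In the OIR retina the mural sum was 2817 RPM at P14 and 7872 RPM at P17, and in the CTL retina 4234 and 4593 RPM. The leukocyte sum in the OIR retina was 1481 RPM at P14 and 1665 RPM at P17, and in the CTL retina 1066 and 1077 RPM. The higher mural ratio at P17 thus went with a higher OIR level at P17 than at P14.

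**Figure D3:**
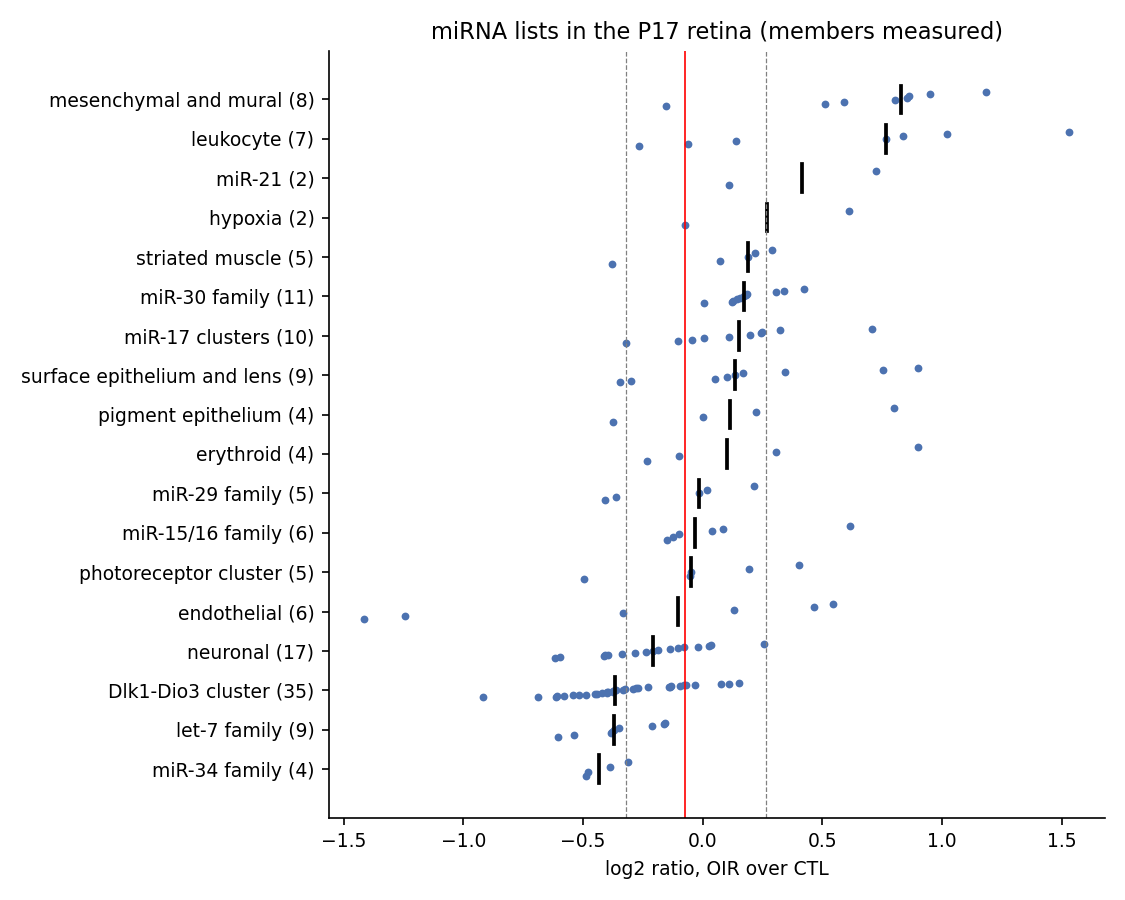
Log2 ratio of OIR over CTL in the P17 retina for the members of 18 lists, with the number of members measured after each name. Points are members, black bars the median of each list, the red line the median of all 537 miRNAs and dashed lines ratios of 1.2 and 0.8. The mural and leukocyte lists have the highest medians (0.83 and 0.77), and the let-7 and miR-34 lists the lowest (-0.37 and -0.43).

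The let-7 family, which promotes differentiation and represses growth genes such as Lin28 and Hmga2, was lower in 6 of its 9 members and higher in none, against 21.0% of all miRNAs lower, with a median log2 ratio of -0.37. Under TMM 2 of 9 were lower, against 67 of 537. let-7b-5p had 2179 RPM in OIR and 3160 RPM in CTL (ratio 0.689), let-7a-5p 13632 and 17706 RPM (ratio 0.770) and let-7e-5p 2221 and 2900 RPM (ratio 0.766). let-7c-5p had 7652 and 9908 RPM (ratio 0.772), let-7d-5p 937 and 1194 RPM (ratio 0.784) and miR-98-5p 318 and 483 RPM (ratio 0.658). The 3 members inside the band were let-7f-5p (0.895), let-7g-5p (0.864) and let-7i-5p (0.897). The ratio of every member was thus under 1, and was so under each of the 4 other scalings too. Summed over the seed the family had 82926 RPM in OIR and 98145 RPM in CTL (ratio 0.845, interval 0.843 to 0.847). Its median log2 ratio was -0.42 at P7 and -0.74 at P14.

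From the imprinted Dlk1-Dio3 cluster, whose miRNAs are mainly neuronal in the adult, 35 entries were taken as a list. Of these 19 were lower and none higher, against 21.0% of all miRNAs lower, with a median log2 ratio of -0.37. Under TMM 8 of 35 were lower. The ratios of the 35 ran from 0.530 for miR-411-3p to 1.11 for miR-485-5p. Among them were miR-433-3p at 0.621, miR-434-3p at 0.653, miR-431 at 0.655 and miR-127-3p at 0.777. The list leaves out other entries of the cluster, such as miR-433-5p (1.71) and miR-673-5p (1.45), which were higher. By position, the largest groups of the cluster had 7 of 15 and 19 of 51 entries lower. In the neuronal list 5 of 17 were lower and none higher, a count near the 21.0% of all miRNAs, with a median log2 ratio of -0.21. Under TMM 2 were lower and 1 higher. miR-138-5p, which shapes dendritic spines, had 301 RPM in OIR and 462 RPM in CTL (ratio 0.652), miR-137-3p 319 and 483 RPM (ratio 0.662) and miR-7b 295 and 387 RPM (ratio 0.761). The abundant neuronal miR-124-3p had 4634 and 5464 RPM (ratio 0.848) and miR-218a-5p 3911 and 4203 RPM (ratio 0.931). In the miR-34 family, targets of p53, 3 of 4 were lower, among them miR-34a-5p with 403 and 526 RPM (ratio 0.765), and under TMM 1 of 4.

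In the miR-30 family, which is broadly expressed, 3 of 11 members were higher and none lower, against 13.0% of all miRNAs higher, with a median log2 ratio of 0.17. These were miR-30e-3p with 2936 RPM in OIR and 2189 RPM in CTL (ratio 1.34), miR-30a-3p with 1005 and 794 RPM (ratio 1.27) and miR-30b-5p with 5332 and 4311 RPM (ratio 1.24). Under TMM 7 were higher, and under total reads 1. From the clusters of miR-17 and its paralogues, which drive proliferation, 10 entries were taken as a list. Of these 2 were higher, miR-17-5p (117 and 71.9 RPM, ratio 1.63) and miR-106b-5p (1.25). At the edge of lower was 1, miR-92a-3p (0.799988), which was inside the band with reads, with TMM and without the top 10 miRNAs in the denominator. Under TMM 5 of 10 were higher and none lower. The list leaves out other entries of these clusters, such as miR-106b-3p (0.760). Among hairpins within 10 kb of each other, the miR-17 group on chromosome 15 had 0 of 8 entries higher and 1 lower. The X-linked group of miR-363 and miR-20b had 0 of 5 higher and 2 lower. Neither group includes miR-17-5p. Of all miRNAs 13.0% were higher and 21.0% lower. The miR-29 family, which represses collagens, had 1 of 5 lower, or 1 higher and none lower under TMM, and the miR-15/16 family 1 of 6 higher, miR-322-5p. The minor arm miR-21-3p had 241 and 185 UMIs (ratio 1.65), whereas miR-21-5p, which is induced in many injured tissues, had 6683 and 6196 RPM (ratio 1.08). Its ratio at P14 was 1.84.

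The study itself named 8 of these miRNAs for the retina at this age, and since it chose them on these libraries they are not independent evidence: 3 were higher and 3 lower, against 13.0% and 21.0% of all miRNAs, with miR-30a-5p and miR-30e-5p inside the band. The study also picked 9 angiogenesis miRNAs from those most changed in its OIR libraries, so these are not independent evidence either. Of the 9, 5 were higher (miR-126a-5p, miR-143-3p, miR-199a-5p, miR-1b and miR-335) and 1 lower (miR-96-5p), with a median log2 ratio of 0.29. Of all miRNAs 13.0% were higher and 21.0% lower. Under TMM 6 were higher, and under total reads 4, without miR-1b. miR-125b-5p had 19262 RPM in OIR and 21827 RPM in CTL (ratio 0.882) and miR-148a-3p 3451 and 3027 RPM (ratio 1.14).

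Hairpins that lie within 10 kb of each other are often transcribed together, and were grouped on the RefSeq annotation. The X-linked group of miR-322, miR-503, miR-351, miR-542 and miR-450a restrains the cell cycle. In it 8 of the 9 measured entries with a sequence were higher, against 13.0% of all miRNAs. The 9 include both arms of miR-322, miR-503, miR-542 and miR-450a. Entries of 1 group can share a transcript and are not independent. The ninth, miR-450a-3p with 35 and 29 UMIs, had a ratio of 1.53 and an interval that included 1. Their ratios ran from 1.31 for miR-542-5p to 1.92 for miR-322-3p, which had 65 and 43 UMIs. The most abundant, miR-542-3p, had a ratio of 1.84, with 693 RPM in OIR and 377 RPM in CTL. miR-503-5p had 231 and 168 UMIs (ratio 1.74) and miR-322-5p 577 and 377 RPM (ratio 1.53). The 4 entries of miR-143/145 were all higher too. The 2 largest groups of the Dlk1-Dio3 cluster had 7 of 15 and 19 of 51 entries lower, against 21.0% of all miRNAs. Of these 2 groups the smaller had 2 entries higher, miR-433-5p (ratio 1.71) and miR-673-5p (1.45), and the larger none. Smaller groups on the same chromosome 6 had 4 entries each, too few to set against the share of all miRNAs. That of miR-341, miR-1188 and miR-370 had 1 of 4 entries lower, with ratios from 0.773 to 1.19. That of miR-3578, miR-3592, miR-3595 and miR-409b also had 1 of 4 lower, with ratios from 0.683 to 0.866.

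For 88 hairpins both arms had at least 100 UMIs in both libraries. The log2 ratio of 5p to 3p UMIs was compared between OIR and CTL, a difference that no scaling of the library can move. It was past 1.2-fold with an interval (Wald, counting error only) that left out 0 for 37 hairpins and past 2-fold for 1. The median absolute difference was 0.22. In 58 of 88 hairpins both arms lay on the same side of a ratio of 1, and the rank correlation of the major and minor arms was 0.40, a description across hairpins.

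The largest difference was that of miR-135a, with 13857 UMIs of the 5p and 137 of the 3p arm in OIR, against 26626 and 127 in CTL. This was a log2 difference of -1.05 (interval -1.40 to -0.70), so that the 5p arm was lower (0.660) and the 3p arm higher (1.37). miR-96 had 373716 and 428 UMIs of its 5p and 3p arms in OIR and 668284 and 410 in CTL, a difference of -0.90 (interval -1.1 to -0.71). Its lower 5p arm was thus not matched by its minor arm. The precursor of miR-96 is shown with the 5p and then the 3p arm in capitals.
Mir96: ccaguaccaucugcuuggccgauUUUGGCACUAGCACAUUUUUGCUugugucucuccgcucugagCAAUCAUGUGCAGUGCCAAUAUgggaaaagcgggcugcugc

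Among the let-7 hairpins some 3p arms had ratios above 1 while the 5p arms had ratios under 1. let-7d-3p had 2159 UMIs in OIR and 1927 in CTL (ratio 1.42), beside 9877 and 15963 UMIs of let-7d-5p, and its share of the hairpin was 17.9% in OIR and 10.8% in CTL. let-7g-3p had 275 and 267 UMIs (ratio 1.31) and miR-98-3p 268 and 287 (ratio 1.18). Other 3p arms had ratios of 0.872 for let-7b-3p, 0.783 for let-7c-1-3p, 0.885 for let-7e-3p and 1.17 for let-7i-3p. The shared entry let-7a-1-3p/7c-2-3p had 1.11, let-7f-1-3p 1.02 and let-7f-2-3p 1.07. The precursor of let-7d, which had the largest difference among let-7 hairpins (-0.86, interval -0.95 to -0.76), is shown with both arms in capitals.
Mirlet7d: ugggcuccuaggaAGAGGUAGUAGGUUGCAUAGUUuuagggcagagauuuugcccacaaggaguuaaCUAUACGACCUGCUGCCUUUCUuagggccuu

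Other shifts toward the 3p arm were those of miR-130b (-0.88), miR-98 (-0.85) and miR-330 (-0.82). Toward the 5p arm the largest was that of miR-106b, a member of a paralogue of the miR-17 cluster, with 1349 and 389 UMIs of its 5p and 3p arms in OIR, against 1367 and 649 in CTL (log2 difference 0.72, interval 0.51 to 0.93). miR-151 (0.53), miR-879 (0.50), miR-298 (0.47), miR-224 (0.37) and miR-485 (0.36) followed. The more abundant arm differed between the libraries only for miR-298, with 192 UMIs of 5p and 148 of 3p in OIR and 225 and 240 in CTL.

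**Figure D4:**
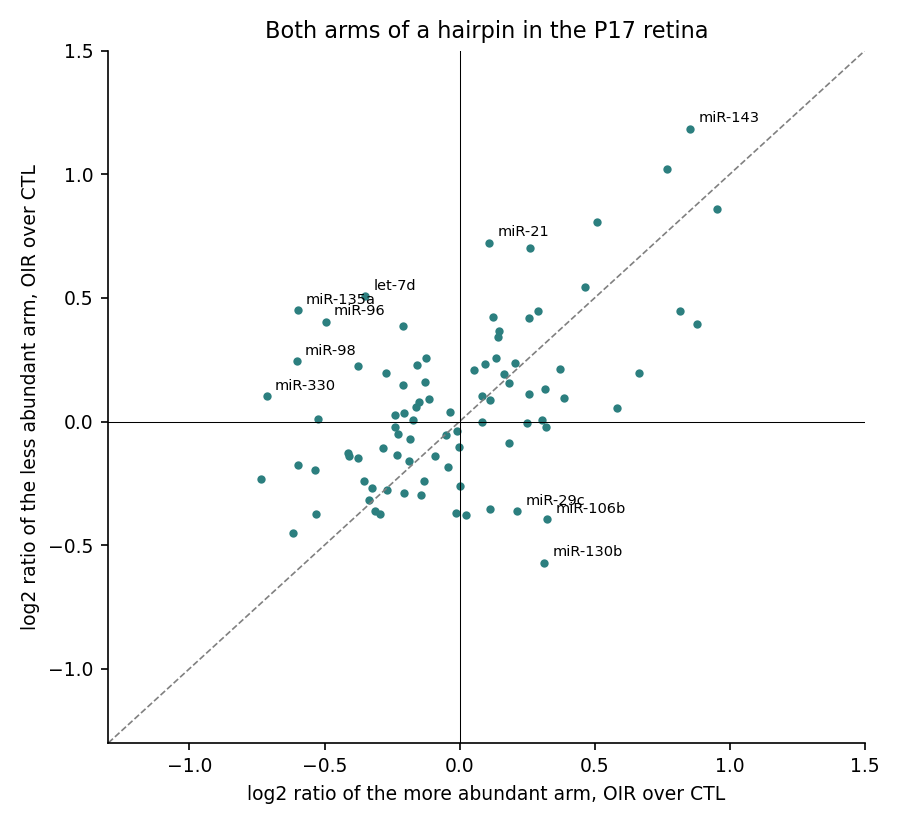
Log2 ratio of OIR over CTL in the P17 retina of the less abundant arm against that of the more abundant arm, for 88 hairpins. The dashed diagonal marks equal ratios. miR-143 lies in the upper right with both arms higher, and miR-135a, miR-96, let-7d and miR-98 lie in the upper left, with a ratio under 1 for the major and above 1 for the minor arm.

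Few miRNAs were listed in only 1 library, and these were rare. The files list entries from 10 UMIs, so an absent entry had fewer. In OIR only there were 10, led by miR-217-3p with 17 UMIs, miR-216b-5p with 13 and miR-871-3p with 12. In CTL only there were 60, led by miR-207 and miR-6216 with 29 UMIs each and miR-509-3p with 24. The CTL library was the deeper one, and the part of depth in this count was not tested.

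Entries annotated as piRNAs, small RNAs known from the germ line where they bind Piwi proteins, held 20827 UMIs in OIR and 29273 in CTL. This is 1975 and 2189 RPM, a ratio of 0.902 (0.886 to 0.918). Of 78 entries 56 had a mean of at least 20 UMIs, of which 9 were higher (16.1%) and 21 lower (37.5%). The most abundant, piR_004288, had 371 RPM in OIR and 338 RPM in CTL (ratio 1.10). piR_000821 was higher, with 189 and 131 RPM (ratio 1.44), and piR_011541 lower, with 92.9 and 187 RPM (ratio 0.498). piR_005595 (0.964) and piR_000746 (0.981) were inside the band.

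Among piRNA entries of at least 100 mean UMIs, piR_037515 was not listed in OIR and had 230 UMIs in CTL, which bounds its ratio at 0.0551 or less. piR_033824 had 26 UMIs in OIR and 191 in CTL (ratio 0.173), piR_015359 42 and 197 (0.270), piR_008174 124 and 472 (0.333) and piR_031043 46 and 165 (0.353). The highest ratios were those of piR_012452 with 336 and 247 UMIs (1.72), piR_012322 with 169 and 128 (1.67), piR_000821, piR_005556 (1.42) and piR_000699 (1.26).

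Fragments of tRNAs, the adaptors of translation, made up 62499 UMIs in OIR and 106897 in CTL. This is 5926 and 7995 RPM, a ratio of 0.741 (0.734 to 0.749). The ratio was 0.836 at P7 and 0.842 at P14. Of 294 entries 228 had a mean of at least 20 UMIs, of which 3 were higher (1.32%) and 130 lower (57.0%), with a median log2 ratio of -0.55. Reads of mRNA were 0.338% of the OIR and 0.540% of the CTL library, and those of rRNA 0.0487% and 0.108%, so that other fragment classes were lower in OIR as well.

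Many tRNA genes are near-identical copies, and how reads were shared among them is not given in the sources used here, so that values of single entries are uncertain. UMIs were therefore summed by anticodon. Of 38 anticodon groups of at least 100 mean UMIs, 23 were lower and 1 higher, and 30 had an interval wholly under 1. GlyGCC, the most abundant, had 2017 RPM in OIR and 2463 RPM in CTL (ratio 0.819) and made up 34.0% of tRNA UMIs in OIR and 30.8% in CTL. AspGTC had 882 and 961 RPM (ratio 0.918). Both of these were closer to 1 than the total.

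Lower ratios were found for LysCTT, with 1589 UMIs in OIR and 4103 in CTL (ratio 0.491), while the other lysine acceptor LysTTT had 6129 and 9196 (ratio 0.845). ValCAC had 1231 and 3182 UMIs (ratio 0.490), ValAAC 650 and 1704 (0.484), AsnGTT 211 and 511 (0.523) and HisGTG 1358 and 2914 (0.591). The group counted as higher was the selenocysteine tRNA SeC(e)TCA, with 144 UMIs in OIR and 119 in CTL (ratio 1.53, interval 1.2 to 1.97). LeuCAA, with 563 and 619 UMIs (ratio 1.15), and AlaAGC, with 362 and 391 (ratio 1.17), had intervals above 1. Another 22 entries carry a transcript identifier with no anticodon, and summed to 3778 UMIs in OIR and 10210 in CTL (ratio 0.469).

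**Figure D5:**
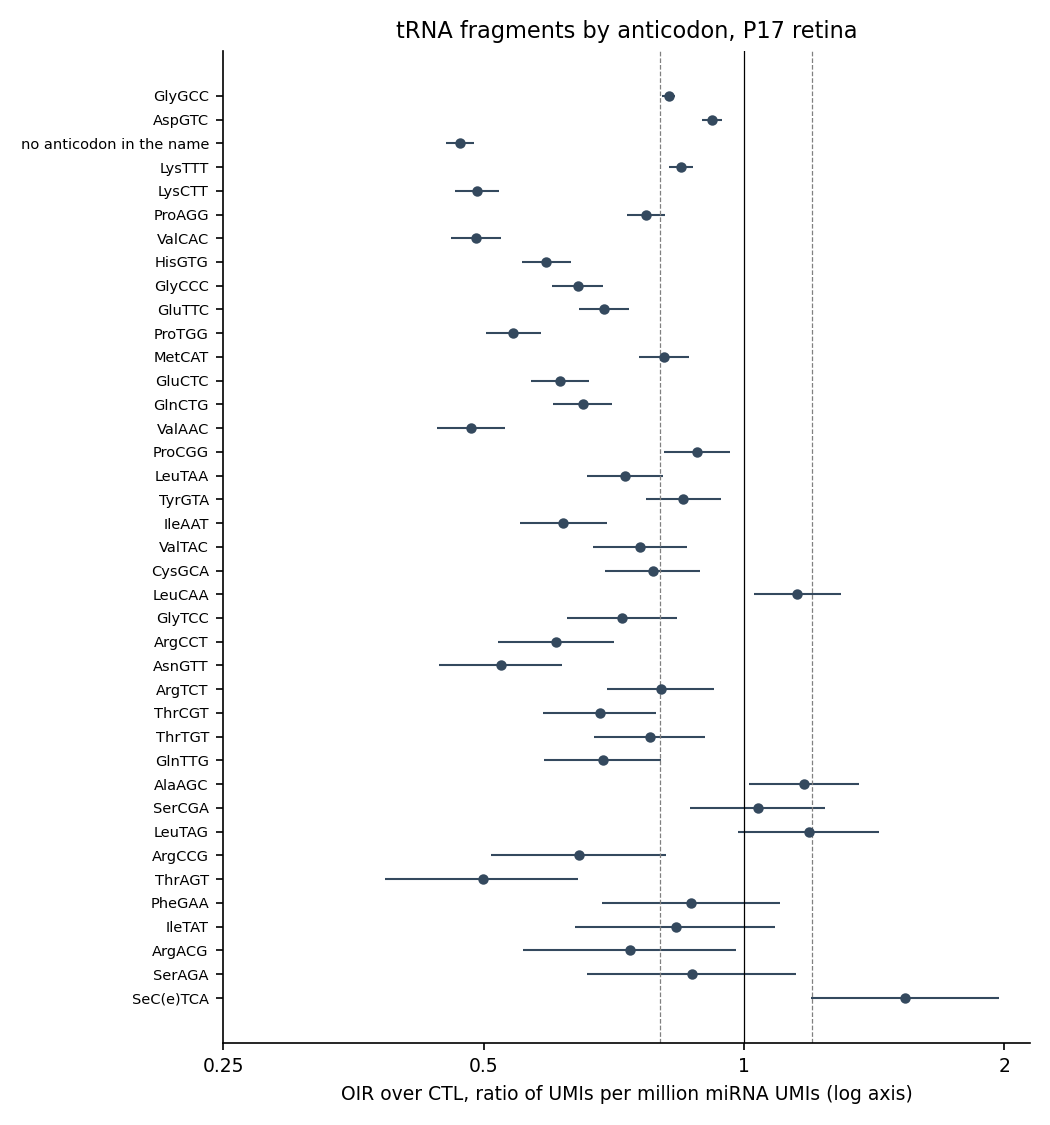
Ratio of OIR over CTL in the P17 retina for tRNA fragments summed by anticodon (RPM, log axis), with 95% counting intervals as bars, ordered by CTL abundance from the top. The row without an anticodon sums the transcript identifiers. Solid and dashed lines mark ratios of 1, 0.8 and 1.2. Most groups lie left of 1, with ValAAC, ValCAC and LysCTT near 0.49 and SeC(e)TCA at 1.53.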

How the data were processed

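Total RNA was extracted with TRIzol and an RNeasy mini kit per the labels, and with a miRNeasy mini kit per the study's methods. The library kit is QIAseq miRNA per the labels and TruSeq Small RNA per the study's methods. Per the submitters' notes, bcl2fastq 2.20, cutadapt, Bowtie and Rnor_6.0 were used, and the counting tool is not given in the sources used here. The authors deposited UMI counts and read counts per miRNA, piRNA and tRNA entry, and read counts per class. Entries are listed from 10 UMIs, and for its own ratio an entry absent from 1 library was set to 10 there as a bound. In the sums by class, list and anticodon and in TMM an absent entry counted as 0. Other small RNAs were not used here. UMIs were scaled to miRNA UMIs with pandas 2.3.3, and intervals came from scipy 1.17.1. Entries with a mean of at least 20 UMIs were compared. Alternatives were reads for UMIs, total reads, TMM (edgeR 4.0.16), a denominator without the top 10 miRNAs, other filters and other folds. The scripts were tested on simulated data. Of 537 miRNAs, 488 matched a RefSeq sequence.

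Named were the 10 most abundant miRNAs, the 10 highest and 10 lowest ratios at 1000 RPM or more and from 10 to 1000 RPM, members of 20 lists, the 6 largest arm differences each way, leading piRNA and tRNA entries, and the 3 leading entries listed on each side only. Other members were chosen after their values were seen. Members and lists were chosen with earlier results of these data known.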

Additional observations from a re-analysis of the deposited data

Results flagged for a closer look

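The median log2 ratio of OIR over CTL had opposite signs at P17 and P7 in 11 of 20 lists, and in 4 of them it was past 1.2 at P17 and past 0.8 the other way at P7 on the ratio scale. The other 7, photoreceptor, neuronal, pigment epithelium, striated muscle, erythroid, surface epithelium and lens, and hypoxia, were inside the fold on at least 1 side. The difference between the ages was not tested, since each age has 1 pool a side, and the P7 CTL library stood apart from the others. The median log2 ratio of the mesenchymal and mural list was 0.83 at P17 and -3.07 at P7. That of the leukocyte list was 0.77 at P17 and -1.60 at P7. The pair of miR-21 arms had 0.42 at P17 and -0.39 at P7. The angiogenesis miRNAs that the study picked had 0.29 at P17 and -1.07 at P7. They were picked for their change in the libraries of this series, so these medians are not independent evidence.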

How the results depend on the processing

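No paired analysis was possible because each group has 1 library and the labels give no replicate numbers. Of 107 named entries past the fold, 75 stayed past it under every scaling and 32 did not under at least 1. The ratio of total tRNA was 0.749 from reads, 0.687 with total reads, 0.80 with TMM and 0.751 without the top 10 miRNAs in the denominator. That of total piRNA was 0.836 with total reads and 0.973 with TMM. The median log2 ratio at 1000 RPM or more was -0.16 with total reads and 0.060, of the other sign, with TMM. With TMM 22 miRNAs were higher and 4 lower at 1000 RPM or more, 32 and 11 from 100 to 1000 RPM, 43 and 30 from 10 to 100 RPM, and 16 higher under 10 RPM, with 6 tRNA entries higher. With total reads 12 miRNAs were higher from 100 to 1000 RPM and 1 tRNA entry. With the whole interval past the fold 15 miRNAs were higher and 22 lower from 10 to 100 RPM, 4 and 12 under 10 RPM, 4 piRNA entries and 0 tRNA entries higher, and 83 tRNA entries lower. With a mean of at least 100 UMIs 1 was higher and 3 lower under 10 RPM, by fewer entries compared. With total reads the erythroid list median changed sign (-0.0071). With TMM those of the endothelial (0.0076), photoreceptor (0.060), miR-15/16 (0.078) and miR-29 (0.096) lists did. The miR-29 median was also above 0 with reads (0.0081) and without the top 10 miRNAs in the denominator (0.0046). The median of all miRNAs was 0.037 with TMM, of the other sign too. Low counts limit the miRNAs under 10 RPM, where 142 of 177 intervals include 1.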
